A study of Homo sapiens with 28 samples.

Results

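The sites described here are stretches of chromatin that carried a peak of dimethylated lysine 36 of histone H3 (H3K36me2) in both replicates of UV-irradiated U2OS cells and in neither replicate of unirradiated cells. They were selected on the measured H3K36me2 peaks. Overlapping peaks of both lists taken 3 h after UV were merged, merged sites with a peak of each list were retained, and every site that shared at least 1 bp with any peak of either unirradiated list was dropped. Of 296730 sites found in both replicates at 3 h, 33529 met this rule, which is 11.3% of them. They are called gained sites below. A further 197183 sites overlapped peaks of both unirradiated lists (kept sites) and 66018 overlapped peaks of 1 of these lists. The mirrored rule, a site of both unirradiated replicates with no peak at 3 h, gave 36794 lost sites among 292476. The selection fixes that gained sites have H3K36me2 peaks at 3 h and none before, so that difference is a description and was not tested.

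H3K36me2 is written by the methyltransferases NSD1, NSD2, NSD3 and ASH1L and removed by demethylases that include KDM2A and KDM2B. It spreads over gene bodies and wide intergenic domains and is usually sparse at active promoters. UV-C light joins adjacent pyrimidines into cyclobutane dimers, most readily at TT steps, and nucleotide excision repair removes them. ASH1L belongs to the trithorax group. The comparison asks where the mark that it writes differs after UV damage.

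U2OS is a human osteosarcoma line. H3K36me2 was immunoprecipitated from wild-type cells, either without UV or 3 h after 20 J/m2 of UV-C, with 2 biological replicates in each condition, and single-end and paired-end runs of a replicate were combined. The second experiment used anti-Flag antibodies in ASH1L knockout U2OS cells transfected with the Flag-tagged carboxy-terminal domain (CTD) of ASH1L, which contains the catalytic SET subdomain. It comprised 3 biological replicates of unirradiated cells and 3 of cells taken 3 h after the same dose. The CTD was therefore expressed from a vector in cells without the endogenous protein, whereas the H3K36me2 cells were wild-type. DNA from all libraries was treated with a repair mix before sequencing to remove UV lesions. Peak lists hold no expression values, so the identity of the cells could not be checked from marker genes.

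Each of the 10 peak lists held exactly 500000 peaks ordered by −log10 p, so lists differ in which peaks they hold and not in how many. The weakest peak of a list had a −log10 p between 1.22 and 1.42. The H3K36me2 lists covered 13.8% and 14.2% of the genome at 3 h, and 15.7% and 15.2% without UV. Median GC content of the peaks was 46.1% and 46.2% at 3 h and 46.7% and 47.0% without UV. Among the CTD lists, replicate 1 without UV and replicate 3 at 3 h stood apart, with median peak GC contents of 46.6% and 46.7% against 43.4% to 44.6% in the other 4. Read depth is not part of the lists and is unknown here, so precision rests on the spread between replicates.

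The 3 gained sites with the highest fold enrichment in their weaker replicate are printed as examples of strong sites. Fold enrichment is the ratio of the ChIP signal to the input control, as given for each peak. The central 200 bases of each are printed on the plus strand of hg38, in lower case.
COL25A1 intron (chr4:108909812-108910011): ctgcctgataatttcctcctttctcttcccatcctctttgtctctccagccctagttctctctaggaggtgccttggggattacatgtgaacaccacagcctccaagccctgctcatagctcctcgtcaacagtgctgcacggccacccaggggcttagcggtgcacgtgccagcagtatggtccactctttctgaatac
LRRTM4 intron (chr2:76931457-76931656): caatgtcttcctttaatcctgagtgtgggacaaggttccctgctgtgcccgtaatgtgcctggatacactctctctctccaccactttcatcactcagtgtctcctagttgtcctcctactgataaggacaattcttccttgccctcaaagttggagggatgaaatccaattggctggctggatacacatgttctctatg
MDGA2 intron (chr14:47389714-47389913): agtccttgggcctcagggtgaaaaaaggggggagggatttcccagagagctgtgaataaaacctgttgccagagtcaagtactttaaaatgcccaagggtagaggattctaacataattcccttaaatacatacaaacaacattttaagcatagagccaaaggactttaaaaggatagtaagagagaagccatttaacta

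The strongest gained site, chr4:108909775-108910048, lies in an intron of COL25A1, a membrane-bound collagen, 146858 bp from the nearest coding gene start. Its fold enrichment was 3.21 in replicate 1 and 3.10 in replicate 2. The site in LRRTM4 (chr2:76931376-76931737), a postsynaptic adhesion protein, had 2.99 and 3.18, and an unirradiated peak ended 73 bp away. The site in MDGA2 (chr14:47389555-47390072), which binds neuroligins, had 2.92 and 2.97. All 3 are intronic, whereas most gained sites lay between genes.

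TT or AA steps, counted as TT on either strand, numbered 18 in the COL25A1 sequence, 24 in the LRRTM4 sequence and 46 in the MDGA2 sequence. The site GC content was 54.4%, 43.4% and 44.4% in the same order, against 36.6%, 34.3% and 35.8% in the 100 kb around each. All 3 were thus richer in GC than their surroundings.

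Most gained sites were weak and narrow. Median fold enrichment was 1.88 in replicate 1 and 1.80 in replicate 2, and the weaker of both values had a median of 1.75 and a maximum of 3.10. Kept sites reached 1.95 and 1.90. Lost sites had 1.82 and 1.80 in their own unirradiated replicates. The median gained site spanned 631 bp, compared with 759 bp for lost and 1364 bp for kept sites, and 97.9% of the gained sites consisted of 1 peak from each replicate. In total they covered 23.99 Mbp.

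Only part of the gained sites reached the nominal cutoff of peak calling in both replicates. A −log10 p of 2 or more in both was seen at 4925 sites, which is 14.7%, against 43.0% of kept sites. At 3 or more the number was 198 (0.591%), and 158 sites had a −log10 q of at least 1.3 in both. Across gained sites, fold enrichment in replicate 1 and replicate 2 correlated with a Pearson's r of 0.193 and a Spearman's rho of 0.186, compared with 0.433 and 0.426 across kept sites. These coefficients describe sites of the same 2 libraries, in which every site had to pass in both lists, and sites are not independent replicates.

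The rule separates sites that look alike on both sides of its limit. At 154 gained sites an unirradiated peak lay within 10 bp, and their median fold enrichments were 1.85 and 1.76. The 132 sites that missed the rule by an overlap of 1 to 10 bp had 1.83 and 1.75. The nearest unirradiated peak was a median of 938 bp away from a gained site. It was more than 1 kb away for 15913 gained sites (47.5%) and more than 5 kb away for 1709 (5.10%), and these most isolated sites had median fold enrichments of 1.87 and 1.80.

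Gained sites lay far from genes more often than lost sites did. Intergenic regions held 19632 of them (58.6%), gene bodies 13768 (41.1%) and promoters, defined as 1 kb on either side of a coding gene start, 129 (0.385%). Per Mbp of each feature that is 12.3, 10.8 and 3.52 gained sites, against 11.3, 14.3 and 16.4 lost sites. There were thus 1.09 gained sites per lost site between genes, 0.755 in gene bodies and 0.214 at promoters, with 0.911 over the genome. The genome-wide ratio was 1.13 with peaks of −log10 p 2 or more, so which set is larger depends on the peaks admitted. With 1 H3K36me2 list left out it lay between 0.491 and 1.75, above 1 without a 3 h list and below 1 without an unirradiated list. Leaving out a list makes the rule unequal for gained and lost sites, so this range does not bear on which set is larger. Kept sites were also mostly intergenic, at 61.3%.

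Gained sites were the farthest of the 3 sets from coding gene starts. The median distance was 143620 bp for gained, 100080 bp for kept and 62063 bp for lost sites. Within 10 kb of a start lay 6.03% of gained sites and 16.1% of lost sites. Beyond 500 kb the shares were 18.3% and 9.08%. Of the gained sites in genes, 13480 were intronic, 193 fell in coding exons and 164 in untranslated exons, and 7210 (21.5%) lay in lncRNA genes, which overlap the other classes.

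Chromosomes rich in GC gained few sites. Chromosome 4 had 2925 gained and 1894 lost sites, a ratio of 1.54 and the highest of all chromosomes. Chromosome 22 had 136 gained and 849 lost sites (0.160), chromosome 19 had 168 and 961 (0.175) and chromosome 17 had 549 and 1422 (0.386). Gained sites numbered 15.4 per Mbp on chromosome 4 against 2.87 on chromosome 19, while lost sites numbered 9.98 and 16.4. Kept sites were also sparse on chromosome 19, at 25.8 per Mbp against 67.7 over the genome. Gained sites made up 13.5% of the 3 h sites on chromosome 4, 8.65% on 17, 8.55% on 19 and 5.67% on 22. The share over all 3 h sites was 11.3%. Chromosome X was low in both, with 3.66 gained and 3.30 lost sites per Mbp, and also in kept sites, with 12.4 per Mbp. Of its 3 h sites 16.5% were gained, the highest share of all chromosomes.

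**Figure D1:**
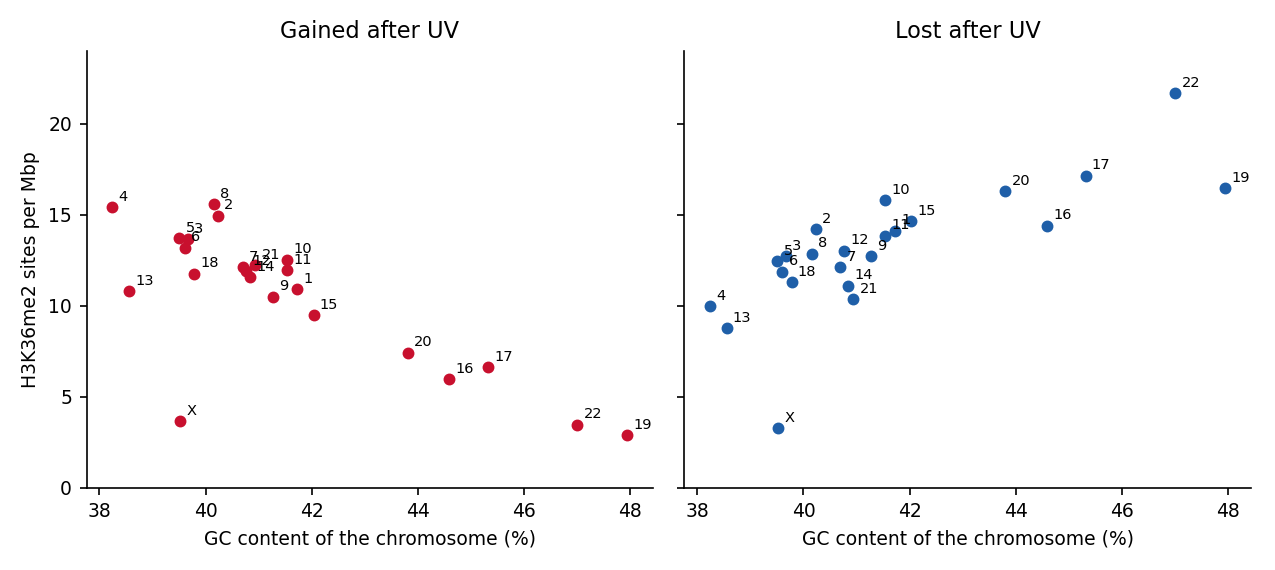
H3K36me2 sites per Mbp on each chromosome (points, labelled by chromosome) against the GC content of the chromosome in percent, for gained sites (left) and lost sites (right). Gained sites are densest on chromosomes 8 (15.6 per Mbp, GC content 40.2%) and 4 (15.4, 38.2%) and sparsest on 19 (2.87), where lost sites reach 16.4. Chromosome 13, also low in GC content (38.6%), has 10.8, and X is low in both panels.

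In windows of 1 Mb, the median number of gained sites was 11 over 2875 windows, and 143 windows had none. Windows with a GC content under 37% held on average 17.5 gained and 8.55 lost sites. Windows of 45% or more held 3.81 gained and 20.6 lost sites. The richest window, 78000001 to 79000000 on chromosome 8, had 47 gained and 8 lost sites and contains PKIA, ZC2HC1A and IL7. It was followed by 84000001 to 85000000 on the same chromosome, with 46 gained and 8 lost sites around RALYL, and by 53000001 to 54000000 on chromosome 10, with 44 gained and 12 lost sites, which contains 1 end of PCDH15. All 3 windows had a GC content between 35.3% and 35.5%.

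Gained sites were small islands of higher GC content in AT-rich surroundings. Their median GC content was 43.6%, compared with 38.1% in the 100 kb around them, and 88.4% of gained sites were above their surroundings. Lost sites had 48.4% within 41.8%, and kept sites 45.8% within 40.02%. The genome as a whole has 40.9%. TT steps made up 17.5% of the steps in a gained site, against 14.9% in lost sites, 16.3% in kept sites and 19.6% in the genome. CpG steps amounted to 0.80% in gained, 1.33% in lost and 1.01% in kept sites.

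Profiles around the site centres show how local this was. In the central 400 bp of gained sites the GC content was 43.4% and TT steps made up 17.8%. At 8 to 10 kb from the centre the values were 38.8% and 20.9%. The GC content of lost sites fell from 48.7% to 43.0% over the same distance and that of kept sites from 46.7% to 40.8%. All 3 sets thus had a centre richer in GC than its flanks, by 4.67 percentage points in gained, 5.70 in lost and 5.86 in kept sites.

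**Figure D2:**
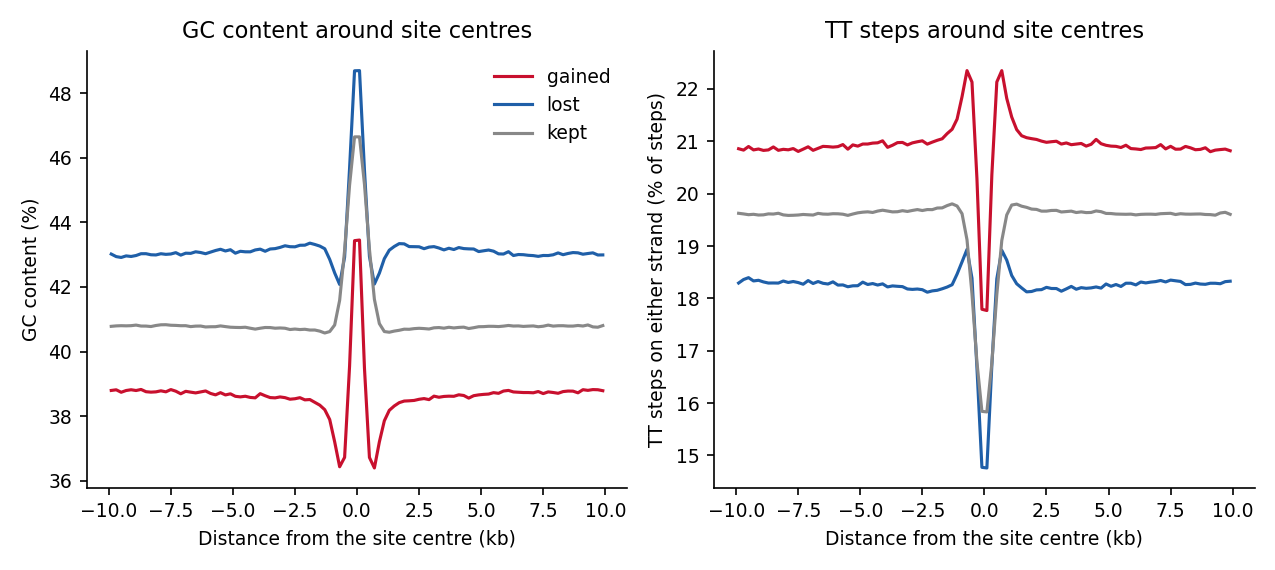
GC content in percent (left) and TT steps on either strand as percent of all steps (right) in 200-bp bins against distance in kb from the centres of gained, lost and kept H3K36me2 sites. Gained sites peak at 43.4% GC over flanks of 38.8%, below lost and kept sites at every distance, and TT steps dip to 17.8% from 20.9%.

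The share of 3 h sites that were gained fell as site GC content rose. It was 36.1% below a GC content of 36%, 14.2% between 40% and 42%, and 6.89% at 50% or more. Gained sites per lost site numbered 1.72 below 36%, were highest at 2.28 between 38% and 40%, and declined to 0.270 at 50% or more. Intergenic shares were also compared within classes of GC content. Between 40% and 42%, 60.2% of gained and 56.4% of lost sites were intergenic, and between 48% and 50% the shares were 53.5% and 50.8%. Below 36% they were 68.5% and 67.9%. At 50% or more they were 51.3% and 39.98%, but this open class does not equalise GC content. TT steps there made up 12.1% in gained and 10.9% in lost sites.

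Letters of Alu, the most abundant short interspersed repeat of primates, were common in gained sites. They were searched as 2 runs of 10 letters of the Alu consensus, GAGGCTGAGG and GGATTACAGG, on both strands. The runs were chosen after sequences of gained sites were seen, and the end of the former can overlap the start of the latter by GG. At least 1 of both runs was present in 10716 gained sites, or 32.0%, against 16.97% of stretches of the same widths 5 kb to each side. Of 4612888 tiles of the genome as wide as the median gained site (631 bp), 19.4% held one. GAGGCTGAGG alone was found in 23.7% of gained sites and 13.9% of tiles, and GGATTACAGG in 24.2% and 13.9%. Among sites of 300 to 1000 bp, the share was 31.1% for gained, 40.2% for lost and 43.4% for kept sites. It rose with GC content among gained sites, from 10.3% below 40% to 51.8% at 48% or more. Below 40%, lost sites had 15.2% and kept sites 37.2%. At 48% or more they had 42.3% and 43.1%, below gained sites, but this open class does not equalise GC content. Reads had to map with high quality, and how that filter acts on repeats was not tested.

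Long genes held most of the gained sites that lay in genes. Of 19970 protein-coding genes 4479 (22.4%) held a gained site and 7482 (37.5%) a lost site. Of the genes under 20 kb 2.91% held a gained site, compared with 97.5% of the 322 genes of 500 kb or more. Density rose as well, from 0.366 gained sites per 100 kb in the shortest to 1.62 in the longest class, while lost sites went from 1.999 to 1.17. Within genes of 100 kb or more, the 5 equal parts from start to end held between 17.8% and 21.3% of the gained sites each.

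**Figure D3:**
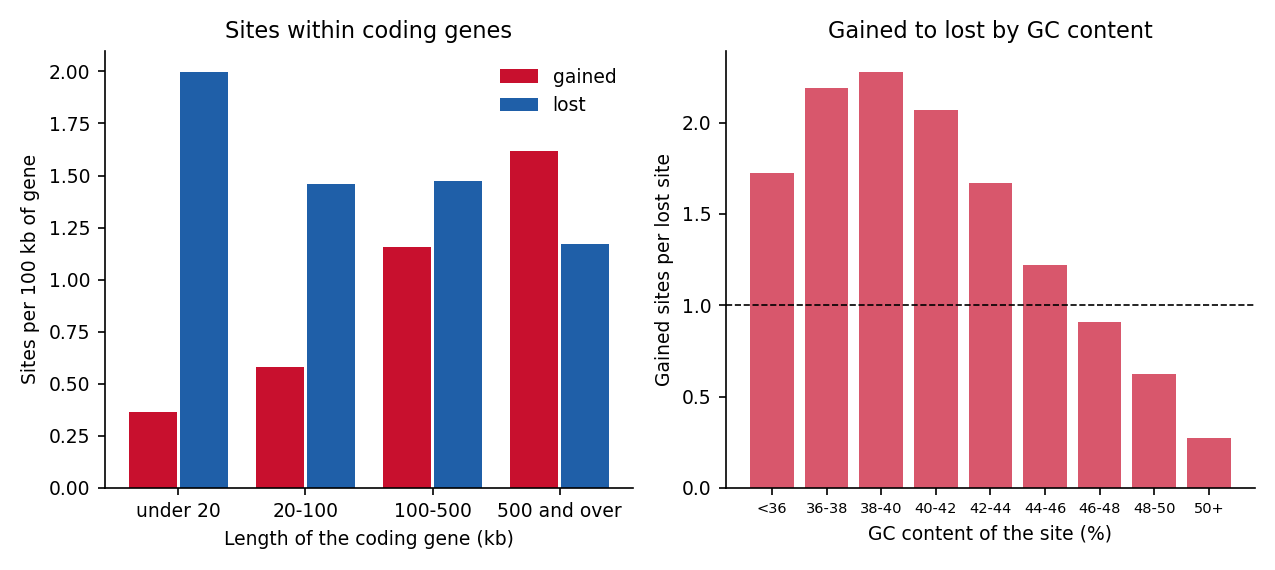
Left, gained and lost H3K36me2 sites per 100 kb of gene in coding genes of 4 length classes; right, number of gained sites per lost site by GC content of the site in percent, with a dashed line at 1. Gained density rises from 0.366 to 1.62 with gene length, and the ratio is highest at 2.28 between 38% and 40% GC and falls to 0.270 at 50% or more.

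The gene with most gained sites was PCDH15 (chr10:53802771-55627942), a protocadherin of hair cell tip links, with 70 gained, 13 lost and 203 kept sites. EYS (chr6:63719980-65707226), an extracellular protein of photoreceptors, had 59 gained and 22 lost sites. DLG2, a postsynaptic scaffold, had 52 and 28, and NRXN3, a presynaptic adhesion protein, 45 and 27. The cGMP-dependent kinase gene PRKG1 had 48 against 12, and CTNNA3, which encodes an alpha-catenin, 46 against 17. These 6 genes are between 1308 and 2173 kb long.

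Gained sites were densest, among genes of 100 kb or more, in CABCOCO1 (8 sites, 7.70 per 100 kb) and COX7B2, a cytochrome oxidase subunit gene (13 sites, 7.45 per 100 kb). CD163L1, a scavenger receptor gene, had 9 sites, CFAP43, a gene of the ciliary axoneme, 6, and the lipid phosphatase gene PLPP3 8. DIPK1A held 7, NDUFAF2, an assembly factor of respiratory complex I, 11, and LRRC8D, a subunit of volume-regulated anion channels, 6. These densities ranged from 5.19 to 7.70 per 100 kb, against 1.05 over all coding genes. With 6 to 13 sites a gene they rest on few sites.

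The excess of gained over lost sites was largest in PCDH15 (57 sites), and was 37 in EYS, 36 in PRKG1, 33 in RALYL, 29 in CTNNA3 and 28 each in CSMD3 and LINGO2. The opposite was seen in other genes. MAD1L1, which encodes a spindle checkpoint protein, had 0 gained and 39 lost sites, and an annotation over the same locus, ENSG00000286192, had 0 and 40. GSE1 had 0 and 27, SDK2, an adhesion protein gene, 0 and 23, and TBC1D22A 0 and 23. AGAP1, which encodes a GTPase-activating protein for Arf, had 1 and 26. SDK1 had 9 gained and 29 lost sites.

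Promoters gained few sites, and those with the highest fold enrichment belonged to tissue-restricted genes as well as widely used ones. The site 163 bp before the start of KRTAP19-6, a hair keratin-associated protein gene, had 2.13 and 2.43. TUSC3, a subunit of oligosaccharyltransferase, had 2.39 and 2.06 at 113 bp before its start. The olfactory receptor genes OR2M2 and OR56B1 had 2.31 and 2.06, and 2.02 and 2.04. SLC5A12, a monocarboxylate transporter, had 1.996 and 1.98, and FEM1C, a substrate receptor of a ubiquitin ligase, 1.97 and 1.99. The kinase gene OXSR1 had 2.01 and 1.96, and RARB, a retinoic acid receptor gene, 1.96 and 1.999.

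Gene groups were read against the 22.4% of coding genes that hold a gained site and the 37.5% that hold a lost site. Of 36 nucleotide excision repair genes 5 (13.9%) held a gained site and 9 a lost site. MNAT1, an assembly factor of the CDK-activating kinase within TFIIH, had 8 gained and 8 lost sites, RPA3, a subunit of the single-strand binding protein RPA, 2 and 2, and ERCC8, a factor of transcription-coupled repair, 1 and 3. XRCC1 and GTF2H5 had 1 gained and 0 lost sites each. The damage sensors XPC, DDB2 and RAD23B and the incision and verification genes XPA, ERCC4 and ERCC5 had neither, while DDB1, ERCC1 and ERCC2 of the same steps had 0 gained and 2, 2 and 1 lost sites.

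Among 25 genes of H3K36 methylation and its readers, 3 held a gained site and 11 a lost site. The demethylase gene KDM4C had 3 gained and 6 lost sites, the methyltransferase gene NSD2 1 and 0, and MORF4L1, which encodes the ASH1L partner MRG15, 1 and 0. ASH1L itself had 0 and 1. KDM4B had 0 and 10, and DNMT3A, a DNA methyltransferase gene that reads the mark, 0 and 9. Of 25 p53 target genes 3 held a gained site and 8 a lost site. The former were TNFRSF10B, a death receptor gene, SESN1, a stress-induced sestrin gene, and RRM2B, a ribonucleotide reductase gene, with 1 each. CDKN1A and MDM2 had none. Of 12 genes of H3K4 methylation and the FACT chaperone, 1 held a gained site and 3 a lost site. The former was DPY30, a core subunit of the methyltransferase complexes, with 4 gained and 2 lost sites.

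Of 24 genes of the osteoblast lineage and bone matrix, 9 (37.5%) held a gained site and 11 a lost site. These genes had 17 gained and 29 lost sites in total. Their gained density was 0.815 per 100 kb, below the 1.05 over all coding genes. RUNX2, the master regulator of the lineage, had 3 gained, 3 lost and 75 kept sites, and FBN1, a microfibril gene, had 4, 5 and 18. In 27 of 29 genes at common fragile sites, which are very long genes prone to breaks under replication stress, there was at least 1 gained site. They held 685 gained and 464 lost sites, or 1.48 gained per lost site, against 1.38 in all coding genes of 500 kb or more. MACROD2 had 37 and 21, PDE4D 37 and 16 and FHIT 21 and 25, whereas PTPRN2 and NBEA had 0 gained and 8 and 7 lost sites.

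All 31 genes of synaptic adhesion and neuronal receptors held a gained site, with 538 gained and 288 lost sites in total. That is 1.87 gained per lost site, against 1.38 in all coding genes of 500 kb or more. NLGN1, a postsynaptic adhesion gene, had 23 and 11, LRRTM4 28 and 9 and the axon guidance receptor gene ROBO1 21 and 9. GRID1 went the other way with 7 and 20. The members of this list and of the fragile site list had median lengths of 928 and 1372 kb, and their gained densities of 1.92 and 1.72 per 100 kb stand beside 1.62 in all coding genes of 500 kb or more. As 97.5% of all genes of that length hold a gained site, the counts of both lists are read against that share.

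The ASH1L CTD lists come from other libraries and cells than those used to select the sites. They address whether more bases of the gained sites lie under listed CTD peaks after UV. All CTD lists hold the same number of peaks, so cover shows where the listed peaks lie. It cannot show whether the amount of bound CTD rose, at gained sites or in general. The paper reports increased CTD recruitment in all chromatin regions after UV, which these lists cannot check. Bases of gained sites under a CTD peak made up 13.4%, 13.4% and 13.98% in unirradiated replicates 1, 2 and 3. At 3 h the values were 14.3%, 14.1% and 12.7%. Both groups overlap, and the lowest and the highest value belong to 3 h lists. The means were 13.6% ± 0.342 (SD, n = 3) and 13.7% ± 0.852 (SD, n = 3), a difference of 0.118 percentage points (two-sided exact permutation test, p = 0.8, adjusted p = 1.0 over 6 tests). With 3 lists against 3, the smallest p this test allows is 0.1. The difference rested on single lists, being 0.607 without 3 h replicate 3 and −0.167 without 3 h replicate 1. Without both lists of high GC content, a choice made after seeing the data, it was 0.521.

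Gained sites were above the genome in each list. Their CTD cover exceeded that of the whole genome, which was between 9.23% and 11.5%, by 1.17- to 1.51-fold. This comparison was not matched for GC content. The median was 43.6% in gained sites and between 43.4% and 46.7% in the peaks of the CTD lists, against 40.9% in the genome. The mean log2 ratio was 0.41 ± 0.15 (SD, n = 6), higher in 6 of 6 lists (two-sided exact sign-flip permutation test, p = 0.03125, the smallest 6 lists allow; adjusted p = 0.09375). With these 6 tests the adjusted p could not fall below 0.0625, so none could pass 0.05. Around the gained sites, CTD cover was between 13.1% and 14.3% in the central 400 bp and between 9.33% and 10.7% at 8 to 10 kb.

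Lost and kept sites were higher still in most CTD lists. In the unirradiated lists 24.7%, 16.5% and 13.96% of the bases of lost sites lay under a CTD peak, and in the irradiated lists 16.7%, 16.3% and 22.8%. For kept sites the unirradiated lists gave 21.1%, 16.1% and 14.3%. The irradiated lists gave 16.7%, 16.9% and 19.5%. The lists that stood apart by GC content, replicate 1 without UV and replicate 3 at 3 h, had the 2 highest values for lost and for kept sites.

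**Figure D4:**
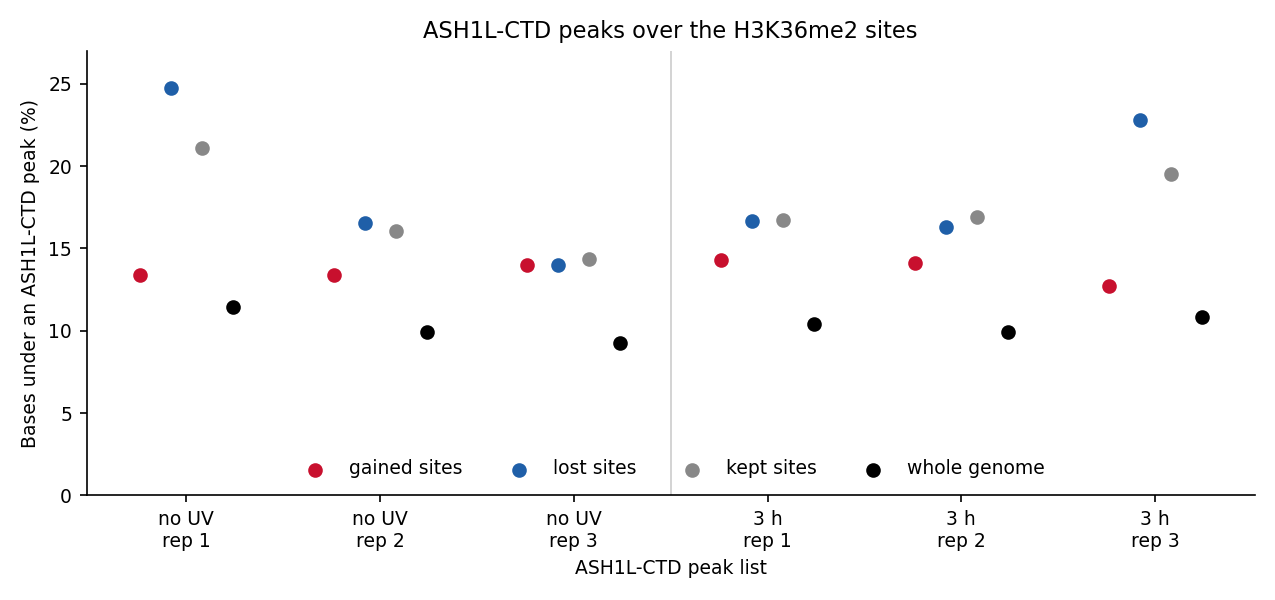
Percent of bases under an ASH1L-CTD peak (vertical axis) in each of the 6 CTD lists (horizontal axis, 3 without UV and 3 at 3 h) for gained, lost and kept H3K36me2 sites and the whole genome, 1 point per list. Gained sites stay between 12.7% and 14.3% in all lists, while lost and kept sites are highest in replicate 1 without UV and replicate 3 at 3 h.

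On a log2 scale, gained relative to lost sites averaged −0.41 ± 0.36 (SD, n = 6), lower in 5 of 6 lists (two-sided exact sign-flip permutation test, p = 0.0625, adjusted p = 0.125). Relative to kept sites the mean was −0.34 ± 0.24 (SD, n = 6), lower in 6 of 6 lists (p = 0.03125 in the same exact test, adjusted p = 0.09375). Within GC bins of 2 percentage points, gained relative to lost sites averaged −0.04 (exact p = 0.25) and gained relative to kept sites −0.19 (exact p = 0.03125). Without the 2 lists of high GC content the means were −0.18 and −0.20.

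The change with UV in these ratios was small. Gained relative to lost sites had a mean log2 ratio of −0.40 ± 0.45 (SD, n = 3) without UV and −0.42 ± 0.36 (SD, n = 3) at 3 h, a difference of −0.03 (two-sided exact permutation test, p = 1.0). Relative to kept sites the values were −0.32 ± 0.31 (SD, n = 3) and −0.37 ± 0.22 (SD, n = 3), a difference of −0.05 (exact permutation test, p = 1.0). The spread between lists was larger than either difference, and CTD peaks without UV had been called against unpooled controls but at 3 h against pooled ones, which cannot be told apart from the effect of UV.

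Counted as sites rather than bases, 7154 gained sites (21.3%) overlapped a CTD site found in at least 2 of 3 replicates without UV, and 7325 (21.8%) one found so at 3 h. Over all 3 h H3K36me2 sites the shares were 34.7% and 36.6%, but wider sites overlap more often. Among sites of 300 to 1000 bp at 3 h, 20.5% of gained and 28.8% of kept sites did so. CTD sites of the 3 h lists with no unirradiated CTD peak lay over 1718 gained H3K36me2 sites (5.12%), against 7.18% of all 3 h sites. CTD sites with the opposite pattern, present without UV and absent at 3 h, lay over 1722 (5.14%), against 7.12%. Width moved with these shares too. Among sites of 300 to 1000 bp, 4.83% of gained and 5.43% of kept sites overlapped a CTD site gained after UV, and by bases the cover was 3.30% in gained, 3.24% in kept and 2.92% in lost sites of any width. Sites that gained both H3K36me2 and CTD in all 3 replicates numbered 264, or 0.787% of the gained sites, and CTD sites of that kind lay over 0.997% of lost and 1.51% of kept sites.

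In each list, CTD cover was higher in gene bodies than between genes, and higher at gained sites of the lowest fold enrichment than of the highest. These differences were not tested. Mean cover was 14.4% in gene bodies and 13.0% between genes without UV, and 14.6% and 13.1% at 3 h. The 129 promoter sites ranged from 11.6% to 18.3% over the 6 lists. Gained sites of the lowest fold enrichment, the first of 4 equal classes, had 15.2% in both conditions, and those of the highest 12.9% in both. Of the 3 sites printed above, each overlapped a CTD peak in at least 1 list, and the COL25A1 site did so in 3 lists without UV and 1 at 3 h.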

How the data were processed

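The deposited files used were 10 lists of broad peaks, 4 for H3K36me2 and 6 for the ASH1L CTD. Per the submitters' processing notes and the methods, the authors trimmed reads (Trim Galore 0.6.5), aligned them with BWA 0.7.17-r1188 to hg38 without chromosome Y, removed reads of mapping quality under 30, duplicates and blacklisted regions (SAMtools 1.7, Picard, bedtools 2.29.2) and called broad peaks (MACS2 2.2.7.1, nominal p-value cutoff 0.01). Controls were inputs for H3K36me2 and empty-vector ChIP for the CTD. The deposited values are a fold enrichment (a linear ratio to control), a −log10 p-value and a −log10 q-value per peak.

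Sites, features (GENCODE release 44, by site centre) and base composition (hg38) were computed in Python 3.11.15 (pandas 2.3.3, NumPy 2.4.6 and, for tests, SciPy 1.17.1; plots with matplotlib 3.10.9). Densities are per Mbp without assembly gaps. CTD cover was compared by two-sided exact permutation tests over lists, with Benjamini-Hochberg adjustment over 6 tests. H3K36me2 measures were not tested, since they chose the sites. The overlap and test functions were tested on simulated data. Members and gene lists were chosen with earlier results of these data known.

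Named were the 6 gained sites of highest fold enrichment in the weaker replicate (chromosome 8 left out, since its sequence is not shown), the 3 windows of 1 Mb with most gained sites, the 8 coding genes with most gained sites, the 8 of 100 kb or more with the highest density, the largest excess of gained and of lost sites, and the 8 promoter sites of highest fold enrichment. Some sites and genes that this rule names are not reported here. Genes of the lists were named by their counts. Alternatives covered peak cutoffs, list length, overlap, CTD peak sets, GC bins, site width, the replicate block and leaving out each list. Other experiments of the study were not analysed here.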

Additional observations from a re-analysis of the deposited data

How the results depend on the processing

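The number of gained sites depends on the peaks admitted. From 33529 it went to 21596 with H3K36me2 peaks of −log10 p 2 or more, 4231 at 3 or more, 4933 where such peaks of −log10 p 2 were set against every peak of the other condition, 3409 at a −log10 q of 1.3 or more, 75562 where only a cover of 50% dropped a site, and 15913 where a peak within 1000 bp also did. The ratio of gained to lost sites, 0.911, took the values 1.13, 0.852, 1.21, 0.549, 0.856 and 0.788 in the same order and 0.963 with the 250000 strongest peaks of each list, so its side of 1 is not fixed. The intergenic share, 58.6%, was 61.0%, 64.5%, 64.4%, 60.8% and 59.7% at −log10 p 2, 3, −log10 q 1.3, the 250000 strongest peaks and the 50% rule. With each H3K36me2 list left out the number lay between 63392 (without the unirradiated replicate 2) and 123030 (without the 3 h replicate 2), since fewer lists had to be passed or avoided. The ratio then lay between 0.491 and 1.75, with the rule unequal for gained and lost sites, and the share between 56.9% and 59.9%.

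No CTD test could pass 0.05 after adjustment over the tests run together (the smallest possible adjusted p was 0.0625), so the tests say nothing about stability. The difference of CTD cover at gained sites, 3 h minus no UV, turned to −0.131 percentage points when sites were counted by an overlap of 1 bp and to −0.119 with the 250000 strongest CTD peaks. It ranged from −0.167 to 0.607 with a list left out. Gained relative to lost sites turned from −0.03 to 0.065 with CTD peaks of −log10 p 2 or more and to 0.025 with the 250000 strongest, and ranged from −0.27 to 0.18 with a list left out. For gained relative to kept sites the values were 0.053 at −log10 p 2 and −0.22 to 0.088 with a list left out. Without the 2 lists of high GC content, an alternative chosen after seeing the data, the UV difference at gained sites was 0.521 (exact p = 0.333, the smallest possible). With a replicate block the 3 differences were 0.118, −0.03 and −0.05 (exact p = 1.0 each, and 0.25 is the smallest 3 pairs allow). The replicate numbers are not shown to pair the lists: over 1-Mb windows, deviations from the group mean of same-numbered lists correlated at −0.621, 0.325 and −0.776, and replicate 1 without UV was closest to replicate 3 at 3 h (0.757).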

Other observations

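Stronger gained sites lay farther from genes. In the class of lowest fold enrichment in the weaker replicate (1.39 to 1.68), the median distance to a coding gene start was 116750 bp and 56.2% of sites were intergenic. In the class of highest fold enrichment (1.86 to 3.10) the values were 166050 bp and 60.1%. The GC content of the surrounding 100 kb was 39.0% and 37.6%, that of the sites 43.7% and 44.1%, and 28.9% and 37.8% of sites held an Alu run. The classes were cut from the H3K36me2 values that chose the sites, so these figures are descriptions.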
